A study of Mus musculus with 9 samples.

Results

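Mitochondria take up calcium through a small set of proteins, and the expression of 9 of the genes for them was followed in the irradiated submandibular salivary gland of the mouse. The genes were picked by name, with earlier results of these data known: Mcu, Mcub, Smdt1, Micu2, Micu3 and Mcur1 of the uniporter complex of the inner membrane, Vdac1 of the outer membrane, and Letm1 and Slc8b1, which exchange ions across the inner membrane. All 9 were among the 54532 gene identifiers of the count table, and all 9 passed the filter on low counts with 15224 genes in total. The samples were submandibular glands of wild-type (WT) mice given 10 Gy of radiation and collected 30, 60 or 90 days later, with 3 libraries at each time point. Every group was irradiated, so each comparison is between times after irradiation, and time cannot be told apart from the age of the mice. The age, sex and hour of harvest are not given in the labels, nor is the part of the body irradiated. Glands without irradiation are named in the extraction protocol and were not analysed here. The labels call the libraries separate samples without saying that they came from separate animals, so the p-values measure the spread between these samples, which may be partly technical.

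Calcium released from the endoplasmic reticulum crosses the outer mitochondrial membrane through VDAC channels and enters the matrix through the uniporter, driven by the membrane potential. MCU forms the pore, EMRE (Smdt1) is needed for the pore to conduct in animals, and the MICU proteins sense cytosolic calcium and keep the pore closed at rest. In the matrix, calcium activates dehydrogenases that feed the respiratory chain, which links a secretory stimulus to the supply of ATP. In salivary acinar cells, muscarinic stimulation raises cytosolic calcium to drive the secretion of fluid, and the title of the study names muscarinic agonism, calcium and ATP.

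Library totals ran from 16541396 to 26065856 counts, and the 30-day libraries were the shallowest. Values are given as CPM, a gene's reads scaled by the library total and by a TMM factor (trimmed mean of M-values). The tissue label was matched by its markers. The acinar genes Prol1 and Aqp5 ran from 38400 to 113000 CPM and from 301 to 522 CPM, and the duct product Klk1 from 16900 to 23500 CPM. Of 12 acinar markers 10 passed the filter, and Smr3a was at or near 0 in every library (at most 0.0343 CPM). The summed level of the 12 acinar markers was 72770 to 129200 CPM at 30 days, 69350 to 89300 at 60 days and 46880 to 63560 at 90 days, most of it Prol1. Single acinar genes did not all follow the sum: of the 10 tested, 6 were higher at 60 than at 30 days. At 90 against 30 days Prol1, Aqp5, Bhlha15, Lpo, Slc12a2 and Pip were lower, 2 of them called, beside 1.77% of all genes called lower. The 4 higher were Bpifa2 (14.1 to 403 CPM over all libraries), Dcpp1 and Dcpp3 (at most 7.59 and 6.59 CPM) and Muc19 (at most 1.15 CPM), none called. The summed level of 8 granular duct markers was 22090 to 30950, 47470 to 57080 and 39880 to 58030 CPM at the same times. Of these 8 genes 7 were called higher at 60 than at 30 days, beside 1.14% of all genes. At 90 against 30 days 7 were called higher too, beside 1.81%. These marker levels ran alongside all results below, and in bulk tissue fewer cells of a type cannot be told apart from less RNA per cell. Their part in the values of the 9 genes was not tested.

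None of the 9 genes passed the test in any comparison. With edgeR's quasi-likelihood test and Benjamini-Hochberg adjustment over 15224 genes, 0 of 9 passed an adjusted p of 0.05 between 30 and 60 days, where 1.56% of all genes passed, 1.14% higher and 0.427% lower. Between 60 and 90 days 0 of 9 passed, beside 0.256% of all genes, 0.092% higher and 0.164% lower. Between 30 and 90 days it was 0 of 9, beside 3.57% of all genes, 1.81% higher and 1.77% lower, and for any difference among the time points 0 of 9 (3.29%). With DESeq2 and limma-voom no gene passed in any of these comparisons either, though DESeq2 gave no adjusted p for Mcub at 90 against 60 days. At an unadjusted p under 0.05 the edgeR test gave 2 genes for 60 against 30 days, Mcu and Micu3, where 12.4% of all genes met that mark. It gave 1 gene for 90 against 60 days, Micu3 (10.8% of all genes), and 0 for 90 against 30 days (16.8%). For any difference it gave Mcu and Micu3 again (16.7%). The genes fell into 6 whose highest library was at most 1.42 times the lowest and 3 low-expressed genes, Mcu, Mcub and Micu3, where that span was 1.93, 3.27 and 2.69 times.

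**Figure D1:**
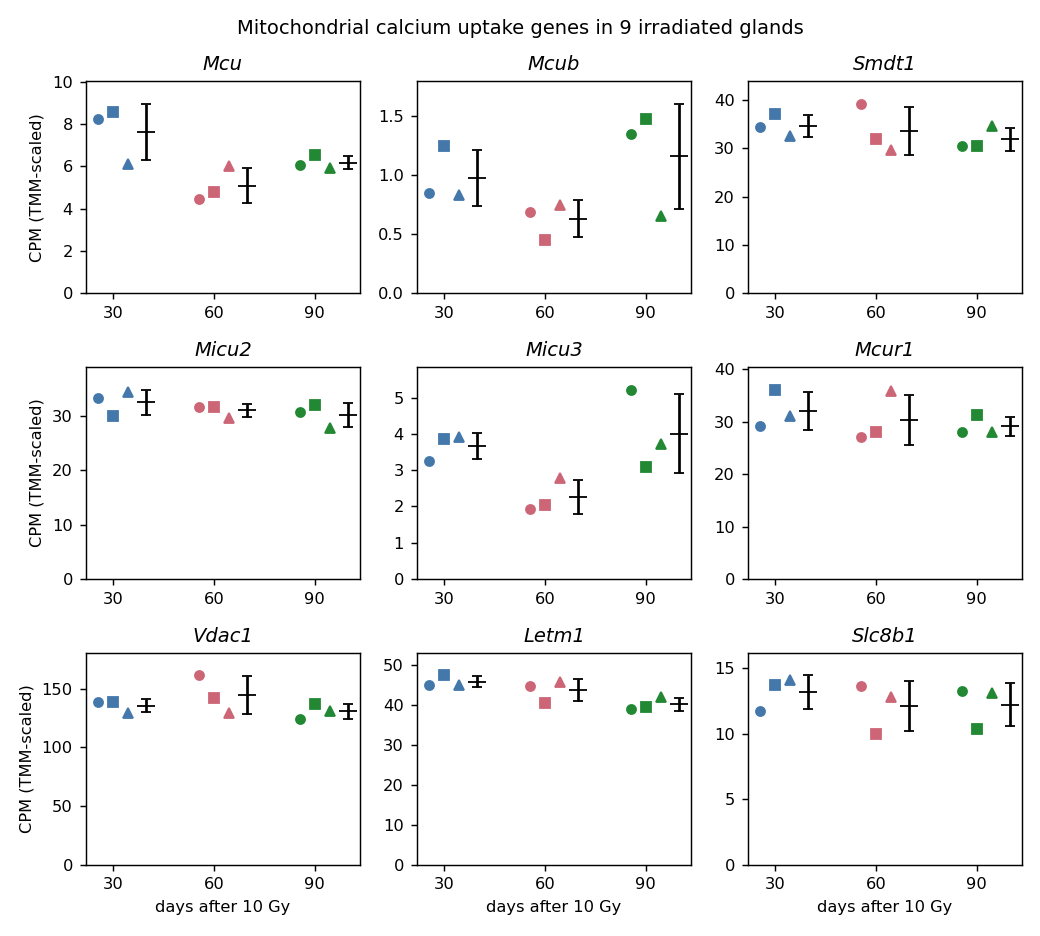
Level of each of the 9 genes (CPM after TMM scaling, axis from 0) in each library at 30, 60 and 90 days after 10 Gy. Circles, squares and triangles are samples 1, 2 and 3 of a time point, and black bars give the mean ± SD (n = 3). Mcu, Mcub and Micu3 have all 60-day values below all 30-day values, and the values of Micu2, Smdt1, Vdac1, Slc8b1 and Mcur1 overlap between all time points.

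The pore gene Mcu (ENSMUSG00000009647, chromosome 10, 59446984 to 59616692, minus strand in GRCm38) measured 8.22, 8.55 and 6.09 CPM in 30-day samples 1, 2 and 3. It measured 4.44, 4.79 and 6.003 CPM at 60 days and 6.06, 6.53 and 5.92 CPM at 90 days. The 60-day values lay below the 30-day values without overlap, though 60-day sample 3 came close to 30-day sample 3, and the 90-day values fell inside the range spanned by the other times. The mean went from 7.62 ± 1.33 to 5.08 ± 0.82 and 6.17 ± 0.32 CPM (SD, n = 3 each). At 60 against 30 days this was a log2 fold change of -0.58 ± 0.20 (SE), or 0.668-fold with a 95% interval of 0.50 to 0.89, and the adjusted p of edgeR's test was 0.190. The later steps gave 0.28 ± 0.19 (SE) at 90 against 60 days, with an adjusted p of 0.638, and -0.30 ± 0.19 (SE) at 90 against 30 days, with an adjusted p of 0.466. Between 103 and 190 reads per library stood behind these values.

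Mcub (ENSMUSG00000027994), on chromosome 3 (129914960 to 129970206, minus strand), encodes a paralog of MCU that enters the complex and reduces its conductance. It was near the limit of detection, with 10 to 43 reads per library. Its values were 0.850, 1.25 and 0.828 CPM at 30 days, 0.690, 0.452 and 0.750 CPM at 60 days, and 1.35, 1.48 and 0.652 CPM at 90 days. The 60-day values were below those of 30 days, while the 90-day group was split, with samples 1 and 2 the highest of all libraries and sample 3 among the lowest. By edgeR's fit the log2 fold change came to -0.62 ± 0.47 (SE) at 60 against 30 days, with an adjusted p of 0.648. At 90 against 60 days it came to 0.89 ± 0.45 (SE), with an adjusted p of 0.496. The 95% interval of the latter ran from 0.963-fold to 3.55-fold, so neither an equal level nor a rise of more than 3-fold lies outside it. The summed level of 12 leukocyte markers, of which 8 passed the filter, was 57.9 to 110.5 CPM at 30 days, 69.4 to 77.3 at 60 days and 83.7 to 182.7 at 90 days. Its highest value was in 90-day sample 2. In 90-day sample 1, where Mcub was nearly as high, it was 83.7 CPM, and the part of these cells in the Mcub values was not tested.

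Micu3 (ENSMUSG00000039478, chromosome 8, 40307458 to 40386308, plus strand) encodes a paralog of MICU2 known mainly from nervous tissue. It measured 3.26, 3.86 and 3.90 CPM at 30 days, 1.94, 2.03 and 2.79 CPM at 60 days, and 5.22, 3.09 and 3.71 CPM at 90 days. All 60-day values were below all other 6 values, a pattern looked for after these values had been seen and present in 1 of the 9 genes and 1.9% of all genes. Micu3 had a log2 fold change of -0.70 ± 0.27 (SE) at 60 against 30 days and of 0.83 ± 0.26 (SE) at 90 against 60 days, with adjusted p-values of 0.268 and 0.248 by edgeR's test. At 90 against 30 days the value was 0.13 ± 0.26 (SE), with an adjusted p of 0.872, and without 90-day sample 1 it was -0.13.

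The highest Micu3 value, in 90-day sample 1, came from a library that stood apart in neuronal genes. Tubb3, a tubulin of neurons, was at 4.95 CPM there, against 1.68 CPM in 90-day sample 2 and at most 0.769 CPM in the other 7 libraries. Uchl1 was at 4.99 CPM in the same library, 1.31 CPM in 90-day sample 2 and at most 0.637 CPM elsewhere. Snap25 was at 2.12 and 0.618 CPM in these libraries and at most 0.238 CPM elsewhere. Chat also had its highest value in 90-day sample 1, at 0.303 CPM. Of the 9 nerve and Schwann markers 5 passed the filter, and their summed level, most of it Sox10, was 118 to 121 CPM at 30 days, 110.6 to 116 at 60 days and 97.5 to 136 at 90 days. Without 90-day sample 1 the log2 difference of Micu3 between 60 and 90 days was 0.58, with an adjusted p of 0.506. Its difference between 30 and 60 days does not involve that library and was also -0.70 without it. Of the 5 tested nerve markers all 5 were lower at 60 than at 30 days and 4 were higher at 90 than at 60 days, with none called. The summed level of 6 endothelial markers was, like Micu3, lower in every 60-day library than in all others on the CPM scale. It was 72.5 to 81.3 at 30 days, 63.6 to 69.9 at 60 days and 72.9 to 93.0 at 90 days. No other of the 11 marker lists had this pattern in its sum. Among the single endothelial genes Tie1 had it, while Pecam1, Kdr, Vwf and Emcn overlapped between 30 and 60 days. Pecam1, for example, was at 22.0 CPM in 60-day sample 1 and 19.1 CPM in 30-day sample 1. By the fitted group difference all 6 endothelial genes were lower at 60 than at 30 days (median log2 fold change -0.27). All 6 were higher at 90 than at 60 days (median 0.33), with none called. The part of nerve or endothelial RNA in the Micu3 values was not tested.

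**Figure D2:**
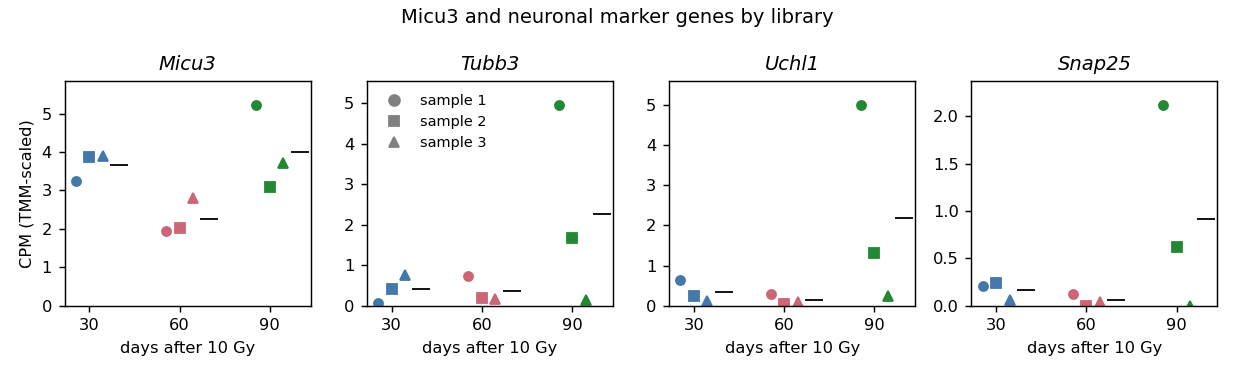
Micu3 and the neuronal genes Tubb3, Uchl1 and Snap25 (CPM after TMM scaling, axis from 0) in each library by days after 10 Gy. Symbols are samples 1, 2 and 3 and short lines are group means (n = 3). In 90-day sample 1 all these genes are at their highest, at 5.22, 4.95, 4.99 and 2.12 CPM.

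The remaining uniporter genes varied less. Smdt1, which encodes EMRE (ENSMUSG00000022452, chromosome 15, 82338959 to 82349091, plus strand), measured 34.5, 37.1 and 32.5 CPM at 30 days, 39.3, 32.0 and 29.7 CPM at 60 days, and 30.5, 30.6 and 34.7 CPM at 90 days. The groups overlapped throughout, and the highest and lowest libraries, 60-day samples 1 and 3, belonged to the same group. Its exons share 245 bases with Pheta2 on the same strand, a gene with 79 reads in the 9 libraries together against 6479 for Smdt1. The gatekeeper Micu2 (ENSMUSG00000021973, chromosome 14, 57916261 to 57999262, minus strand) gave 33.4, 29.9 and 34.4 CPM, then 31.7, 31.7 and 29.7 CPM, then 30.8, 32.0 and 27.7 CPM. It had the smallest spread of the 9 genes, with a coefficient of variation of 6.38% over all libraries. Mcur1 (ENSMUSG00000021371, chromosome 13, 43538393 to 43560191, minus strand) encodes a scaffold factor of the uniporter. It ranged from 27.1 to 36.1 CPM with group means of 32.1 ± 3.61, 30.4 ± 4.78 and 29.1 ± 1.81 CPM (SD, n = 3 each).

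Vdac1, the gene of the main outer membrane channel (ENSMUSG00000020402, chromosome 11, 52360860 to 52389397, plus strand), measured 139, 138 and 129 CPM at 30 days, 161, 142 and 129 CPM at 60 days, and 124, 137 and 131 CPM at 90 days. The values of the 3 groups overlapped, and 60-day sample 1 was the highest. At 60 against 30 days its log2 fold change was 0.09 ± 0.10 (SE), with an adjusted p of 0.782.

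Letm1 (ENSMUSG00000005299, chromosome 5, 33739673 to 33782817, minus strand) encodes an inner membrane protein of cation and proton exchange, with a debated part in calcium transport. It measured 45.04, 47.4 and 45.07 CPM at 30 days, 44.7, 40.5 and 45.7 CPM at 60 days, and 39.0, 39.5 and 42.0 CPM at 90 days. The 90-day values were below the 30-day values without overlap, as was so for 11.8% of all genes, with 11.4% higher and 23.2% in either direction. That difference was -0.19 ± 0.10 on the log2 scale (SE), with an adjusted p of 0.331, and 0.03 when libraries were scaled by their totals alone. Slc8b1 (ENSMUSG00000032754, chromosome 5, 120511168 to 120534024, plus strand) encodes NCLX, the sodium exchanger that moves calcium out of the matrix. It ranged from 9.99 to 14.1 CPM, with group means of 13.2 ± 1.27, 12.2 ± 1.92 and 12.2 ± 1.64 CPM (SD, n = 3 each). Between 60 and 90 days its log2 fold change was 0.01 ± 0.15 (SE), with an adjusted p of 0.993, and its sign turned under several alternatives.

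For Smdt1, Micu2, Mcur1, Vdac1, Letm1 and Slc8b1 no change was shown, and on the TMM scale the fit gave fairly narrow intervals. In all 3 pairwise comparisons the 95% intervals of these 6 genes lay inside a 1.5-fold change in either direction. Each is a single 95% interval, not adjusted for the number of genes and comparisons. Intervals were computed on the TMM scale only, and library-total scaling moved the estimates, for Vdac1 at 90 against 30 days to a log2 fold change of 0.177. The lowest bound was 0.733-fold, for Slc8b1 at 60 against 30 days, and the highest 1.26-fold, for Slc8b1 at 90 against 60 days. The intervals of Mcu reached down to 0.50-fold and up to 1.61-fold, and those of Micu3 from 0.416-fold to 2.59-fold, and those of Mcub from 0.327-fold to 3.55-fold. Differences in these 3 genes were thus bounded only loosely at this depth and spread.

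**Figure D3:**
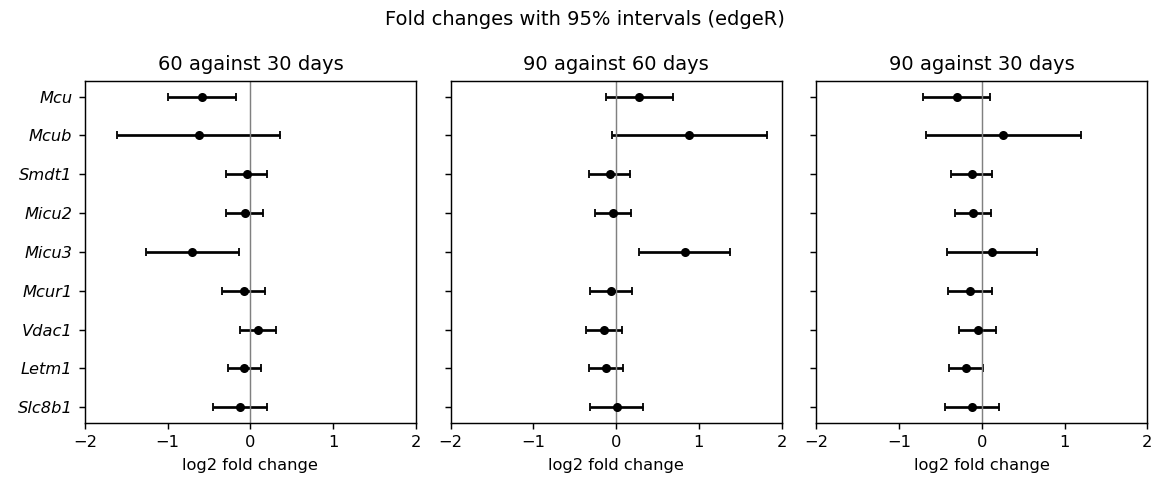
Log2 fold change of each gene in the 3 pairwise comparisons of time points, later against earlier, with 95% intervals from the standard error of edgeR's fit (9 libraries). The intervals of Mcu and Micu3 at 60 against 30 days, and of Micu3 at 90 against 60 days, lie off 0. This is before adjustment for 15224 genes. The intervals of the 6 higher-expressed genes stay within a 1.5-fold change on the TMM scale.

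As a group the 9 genes had a median log2 fold change of -0.08 at 60 against 30 days, with 1 higher and 8 lower, beside a median of 0.00 over all tested genes, 7557 higher and 7667 lower. The values of the 2 groups did not overlap in 3 of the 9 genes, Mcu, Mcub and Micu3, all lower at 60 days, where 8.22% of all genes were lower and 8.65% higher without overlap (16.9% in either direction). These were also the 3 genes with the fewest reads. From 60 to 90 days the median was -0.04 with 4 higher and 5 lower, and the groups did not overlap in 1 gene, Micu3, higher at 90 days (8.3% of all genes higher, 7.64% lower and 15.9% in either direction). From 30 to 90 days it was -0.11 with 2 higher and 7 lower. Scaling by library totals alone moved the median of all genes to 0.17 at 90 against 60 days and 0.24 at 90 against 30 days. It turned the sign of Smdt1, Micu2, Mcur1, Vdac1 and Letm1 in both of these comparisons and of Slc8b1 in the longer one, so no direction is given for them. The comparisons share libraries and are not independent.

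Levels between genes were compared per kilobase of annotated exon. Vdac1 was the highest at 52.2 ± 4.14 CPM per kb (SD over 9 libraries), Smdt1 followed at 22.6 ± 2.19 and Micu2 at 10.1 ± 0.65. The ranges of these genes did not overlap with each other or with any lower gene. Letm1 at 4.48 ± 0.31, Mcur1 at 4.31 ± 0.48 and Slc8b1 at 3.62 ± 0.43 CPM per kb overlapped in range. The pore gene Mcu, at 0.907 ± 0.197 CPM per kb, was lower than all of these in every library and overlapped with Mcub (0.699 ± 0.266) and Micu3 (0.538 ± 0.166). The reads of Smdt1 were 19.7 to 41.4 times those of Mcu per kb, and the reads of Micu2 7.87 to 16.1 times. The long exon models of Mcu, Letm1 and Mcur1 lower their values on this scale wherever the gland uses a shorter transcript. Among relatives listed for comparison, the VDAC genes Vdac2 and Vdac3 were at 24.3 ± 1.18 and 6.15 ± 0.64 CPM per kb.

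**Figure D4:**
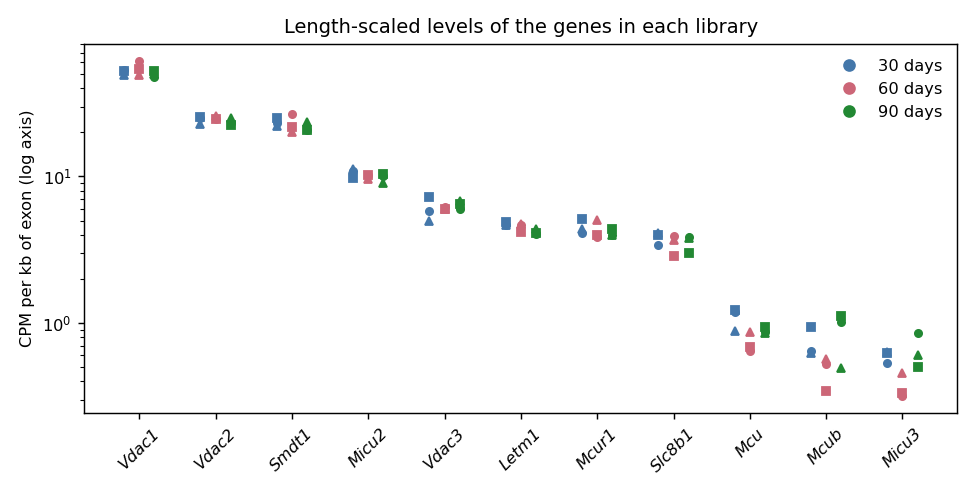
Level per kilobase of annotated exon (CPM per kb, log axis) of the 9 genes and of Vdac2 and Vdac3 in each library, coloured by days after 10 Gy and ordered by mean. Vdac1 at 52.2 and Smdt1 at 22.6 CPM per kb stand far above Mcu at 0.907, and the 60-day values of Mcu and Micu3 are at the low end of their genes.

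Ratios of 2 genes within a library do not depend on how libraries are scaled, and 6 of them were tested with an exact permutation test over the 280 distinct groupings of the libraries in threes (Benjamini-Hochberg over the 6, smallest possible p 0.00357). None passed an adjusted p of 0.05. The scaffold gene Mcur1 had 3.54, 4.22 and 5.10 reads per read of Mcu at 30 days, 6.11, 5.87 and 5.97 at 60 days, and 4.63, 4.78 and 4.74 at 90 days. The 60-day ratios were above all others (exact permutation p = 0.0143, adjusted p = 0.0857). Without 30-day sample 3 the adjusted p was 0.0214, and over all other single samples left out it was as high as 0.279. The ratio of Micu3 to Micu2 was 9.77, 12.9 and 11.4 reads per 100 at 30 days, 6.11, 6.42 and 9.40 at 60 days, and 17, 9.66 and 13.4 at 90 days. Its exact permutation p was 0.0429 and its adjusted p 0.129.

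The number of Mcub reads per 100 reads of Mcu was 10.3, 14.6 and 13.6 at 30 days, 15.5, 9.43 and 12.5 at 60 days, and 22.2, 22.6 and 11.0 at 90 days. The 90-day group again held both the highest values and, in sample 3, a value as low as those of the earlier groups (exact permutation p = 0.300, adjusted p = 0.350). Micu2 had a mean of 4.40 ± 1.11, 6.24 ± 1.14 and 4.89 ± 0.20 reads per read of Mcu, and Smdt1 4.63 ± 0.62, 6.82 ± 1.95 and 5.19 ± 0.60 (SD, n = 3 each). The exact permutation test gave an adjusted p of 0.193 for each. For Slc8b1 the ratio was 1.79 ± 0.47, 2.43 ± 0.55 and 1.99 ± 0.36, with an adjusted p of 0.350 by the same exact test. The 4 ratios to Mcu other than that of Mcub thus all had their highest mean at 60 days. They share the same Mcu counts and are not independent.

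Genes around the uptake machinery were taken from 5 lists with 71 genes in all, each of which passed the filter. Of all genes 1.56%, 0.256% and 3.57% passed an adjusted p of 0.05 at 60 against 30, 90 against 60 and 90 against 30 days. Of 12 other genes of mitochondrial calcium handling, among them Vdac2, Vdac3 and Ghitm, 0 passed in any pairwise comparison, and their median log2 fold changes were 0.04, -0.07 and -0.02 for 60 against 30, 90 against 60 and 90 against 30 days. At an unadjusted p under 0.05 the edgeR test gave 0, 3 and 0 of them. The smallest p for any difference was that of Hspa9, a matrix chaperone that also links VDAC to the calcium release channels. It went from 164 ± 10.1 to 174 ± 7.48 and 143 ± 4.86 CPM (SD, n = 3 each) without passing.

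Of 20 genes that track mitochondrial content, such as Cs and Tomm20, 0 passed in any pairwise comparison. Their summed level was 1158 to 1219 CPM at 30 days, 1152 to 1215 at 60 days and 1091 to 1119 at 90 days, so on the TMM scale every 90-day library lay below all others. The list's median log2 fold change turned from -0.06 to 0.12 at 90 against 60 days, and from -0.04 to 0.19 at 90 against 30 days, when libraries were scaled by their totals alone. When libraries were scaled to the summed reads of this list, the log2 fold change of Mcu from 30 to 60 days was -0.56 and that of Micu3 -0.69, and 0 of the 9 uptake genes passed. Of 13 genes of the contact between endoplasmic reticulum and mitochondria 0 passed, and Itpr3, a calcium release channel, had the smallest p for any difference, at 65.7 ± 9.30, 53.7 ± 5.75 and 51.8 ± 3.60 CPM (SD, n = 3 each). At an unadjusted p under 0.05 these lists had 0, 0 and 3 genes of mitochondrial content and 3, 2 and 3 contact genes in the 3 comparisons, in the order above, where 12.4%, 10.8% and 16.8% of all genes met that mark.

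Among 18 genes of calcium-regulated mitochondrial metabolism 1 passed, Slc25a25. It did so at 60 against 30 days, beside 1.56% of all genes, and at 90 against 60 days, beside 0.256%. At 90 against 30 days 0 passed, beside 3.57%. The unadjusted mark was met by 3, 5 and 3 genes in the same 3 comparisons. Slc25a25 encodes a calcium-binding carrier of the inner membrane that exchanges ATP-magnesium for phosphate and so sets the adenine nucleotide content of the matrix. It measured 16.2, 19.8 and 18.9 CPM at 30 days, 38.7, 28.8 and 39.4 CPM at 60 days, and 21.8, 23.9 and 22.6 CPM at 90 days. The 60-day values stood above all 30-day values, as was so for 8.65% of all genes, and above all 90-day values, as for 7.64%. The 90-day values stood above those of 30 days, as for 11.4% of all genes. It rose between 30 and 60 days by 0.96 ± 0.13 (SE) on the log2 scale, with an adjusted p of 0.000765 by edgeR's test, or 1.94-fold with a 95% interval of 1.61 to 2.35. It fell between 60 and 90 days, where the log2 difference was -0.65 ± 0.13 (SE), with an adjusted p of 0.0350. The rise kept its call under all 20 alternatives run, with adjusted p from 5.32e-11 to 0.00552, while the fall lost it under 12 of 20, library-total scaling among them (-0.48, adjusted p = 0.368). The fall kept its call without 30-day sample 1 and without 60-day sample 2, and lost it without any other single library, with adjusted p from 0.0533 to 0.118. In this list the other 17 genes, among them the pyruvate dehydrogenase, isocitrate dehydrogenase and oxoglutarate dehydrogenase genes, did not pass in any comparison.

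Of 8 regulators of mitochondrial biogenesis 1 passed, at 90 against 30 days, where 3.57% of all genes passed (1.81% higher, 1.77% lower). Ppargc1a encodes PGC-1alpha, the coactivator that drives the expression of mitochondrial genes. It measured 49.2, 39.5 and 33.8 CPM at 30 days, 27.6, 39.0 and 38.8 CPM at 60 days, and 30.8, 23.7 and 22.7 CPM at 90 days. The 90-day values were below all 30-day values, as was so for 11.8% of all genes, and overlapped with those of 60 days. At 90 against 30 days it was lower, with a log2 difference of -0.66 ± 0.16 (SE) and an adjusted p of 0.0373 by edgeR's test. The call was lost under 8 of 20 alternatives, among them library-total scaling (-0.41, adjusted p = 0.227). Of these 8 losses, 5 came from leaving out a single library, namely 30-day sample 1 (-0.51, adjusted p = 0.174), 30-day sample 2 (0.0952), 60-day sample 2 (0.0513), 90-day sample 2 (0.169) or 90-day sample 3 (0.148, all adjusted p). For any difference among the time points Ppargc1a had an adjusted p of 0.0853, and 5 of 19 alternatives brought it under 0.05. These were DESeq2 (0.0163), no filter on low counts (4.08e-05), and the omission of 30-day sample 3 (0.0454), 60-day sample 1 (0.0254) or 90-day sample 1 (0.0289), and over all 19 the adjusted p ran up to 0.416. The summed acinar markers, mostly Prol1, were lower in every 90-day than in every 30-day library. Of the 10 tested acinar genes 6 were lower, and 4, Bpifa2, Dcpp1, Dcpp3 and Muc19, were higher. The part of acinar RNA in this result was not tested.

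**Figure D5:**
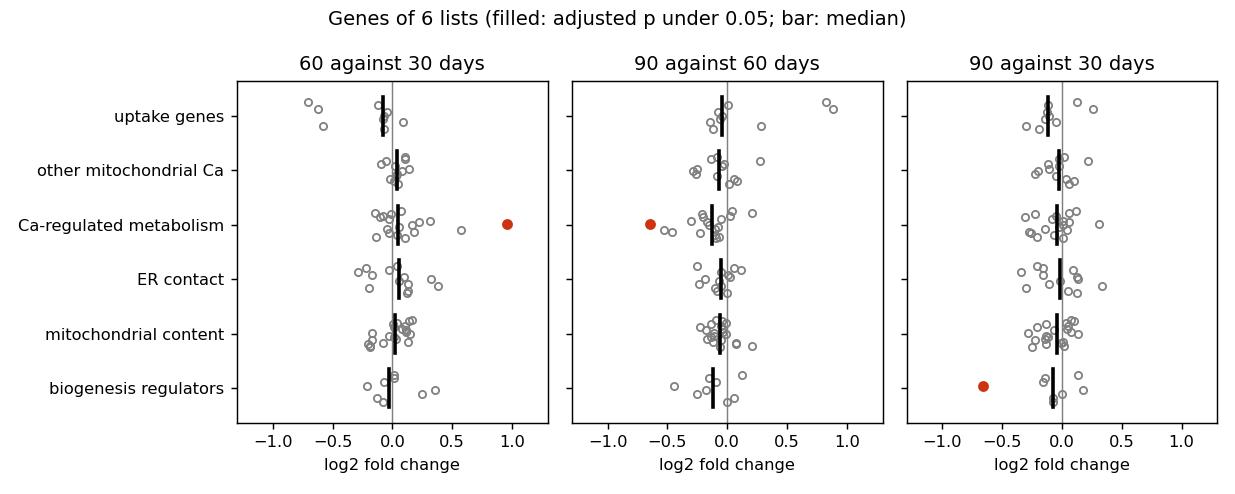
Log2 fold changes of the 9 uptake genes and of the 71 genes of the 5 other lists in the 3 comparisons of time points. Each circle is 1 gene, filled where the adjusted p is under 0.05, and the bar is the list's median. Only Slc25a25 (0.96 and -0.65) and Ppargc1a (-0.66) are filled.

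The genes whose pattern over the 9 libraries was most like that of a member were sought by Pearson's correlation of log2 CPM among all tested genes. For Mcu these were Cep135 (r = 0.964), Gm12418 (0.95) and Phrf1 (0.939). For Micu3, which had the smallest p for any difference of the 9 genes, they were Gm6566 (r = 0.969), Nisch (0.934) and Adamtsl1 (0.925). Among pairs of the 9 genes themselves r ran from -0.801 for Micu3 with Vdac1 to 0.719 for Smdt1 with Vdac1. Mcu correlated with Micu3 at 0.602, with Mcub at 0.587 and with Mcur1 at 0.558. These values describe 9 libraries that share time points and scaling, and the highest of so many correlations over so few libraries is high in any data.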

How the data were processed

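The measurements are RNA sequencing read counts of 9 libraries from total RNA of gland sections, prepared per the labels' protocols with DNase treatment and a SMARTER mRNA-seq kit. The authors deposited raw read counts per Ensembl gene. Per the submitters' processing notes, fastp, STAR, featureCounts and the build mm10 were used, while versions, annotation and strand setting are not given in the sources used here. Columns were matched to samples by day and sample number, and 3 columns whose names fit none of the samples were left aside. Symbols were found for 54409 of 54532 identifiers, and positions and exon lengths come from GENCODE M21 (GRCm38).

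Low-count genes were removed with filterByExpr (minimum count 10) in edgeR 4.0.16, R 4.3.3, and libraries were TMM-scaled. All 9 libraries were fitted with a time point term and tested by edgeR's quasi-likelihood test with Benjamini-Hochberg adjustment over 15224 genes, threshold 0.05. The common biological coefficient of variation was 0.150. Intervals use the fit's standard errors. Ratios of raw counts had 0.5 added for the test, which ran on the log2 scale. The edgeR and permutation scripts were first run on simulated data. Alternatives were other scalings, DESeq2 1.42.0, limma-voom (limma 3.58.1), other filters, equal depth, the libraries of a comparison alone, each library left out, and the sample number as a block. Scaling to the mitochondrial content list was chosen after seeing the data. The named genes are the 9 uptake genes, list genes with an adjusted p under 0.05 and each list's smallest p, of which an item is not reported here. The members and lists were chosen with earlier results of these data known. No molecular identifiers are named, so reads may be copies of the same molecule.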

Additional observations from a re-analysis of the deposited data

How the results depend on the processing

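The count of 0 uptake genes past the threshold held in each comparison under every alternative run, with smallest adjusted p-values between 0.0995 and 0.695, and 0 was also the count with the replicate block (sample number). The correlation of deviations from the group means ran from -0.06 to 0.191 for samples of equal number and from -0.21 to 0.189 for unequal numbers. With 3 libraries per group this cannot exclude a pairing, and the labels do not say whether equal numbers are matched. None of 710 single-gene values passed the threshold, and 32 of them changed sign. With library-total scaling, Micu2, Smdt1, Mcur1, Letm1 and Vdac1 had log2 fold changes of 0.144, 0.0981, 0.101, 0.0454 and 0.0395 for 90 against 60 days, and Micu2, Smdt1, Mcur1, Letm1, Slc8b1 and Vdac1 0.124, 0.0961, 0.0806, 0.0281, 0.0964 and 0.177 for 90 against 30 days. That scaling also moves the median of all genes. With scaling to the mitochondrial content list, chosen after seeing the data, Micu2, Smdt1 and Mcur1 had 0.0505, 0.0133 and 0.0258 for 90 against 60 days and Vdac1 0.0565 for 90 against 30 days. Slc8b1 for 90 against 60 days was -0.00102 with DESeq2-type size factors, -0.000985 with DESeq2, -0.00223 without a filter, -0.00258 with the 6 libraries alone and -0.0217 at equal depth. With single libraries left out, the log2 fold changes for 60 against 30 days ran from -0.169 to 0.0404 for Smdt1, -0.215 to 0.0141 for Mcur1 and -0.21 to 0.00239 for Slc8b1. For 90 against 60 days they ran from -0.0917 to 0.0127 for Micu2, -0.17 to 0.0442 for Smdt1, -0.139 to 0.0671 for Mcur1 and -0.118 to 0.109 for Slc8b1, and for 90 against 30 days from -0.125 to 0.282 for Micu3. The adjusted p of the ratio of Mcur1 to Mcu (exact permutation test) ran from 0.0214 to 0.279 with single libraries left out and was 0.333 with the replicate block. The other ratios stayed above the threshold in all alternatives. The cause of these changes was not tested. DESeq2 gave no adjusted p for Mcub at 90 against 60 days.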
